A study of Rattus norvegicus with 8 samples.

Results

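The GABA-A receptor subunits measured here were Gabra2, Gabra3, Gabra5 and Gabra6 (alpha subunits), Gabrb1 and Gabrb2 (beta subunits) and Gabrd (the delta subunit). They were taken as every probe set whose gene symbol in the array's annotation table was 1 of these 7 names, of 4737 distinct symbols in the table. This gave 11 probe sets of the 8799 on the array, with 2 each for Gabra3, Gabra5, Gabrb2 and Gabrd and 1 each for Gabra2, Gabra6 and Gabrb1. All 11 passed the filter on low values, out of 7770 probe sets that did. The GABA-A receptor is the chloride channel through which the transmitter GABA inhibits neurons fast. It is a ring of subunits, usually alpha, beta and a gamma or delta subunit, and volatile anaesthetics such as isoflurane are known to prolong its currents. Which alpha subunit is built in sets where and how it works: receptors with the delta subunit lie outside synapses and carry tonic inhibition, with Gabra6 in cerebellar granule cells, and Gabra5 is best known from the hippocampus.

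The arrays measured total RNA of whole rat brain, 1 sample per array and 8 in all. The 3 control samples came from rats that breathed isoflurane for 3 min and, per their labels, were perfused with cold saline at once. Another 2 samples came from exposure to 2% isoflurane for 1 hr and 3 from exposure for 2 hr, and intubation is stated for all 8. The labels number the samples but not the animals, so p-values measure the spread between these samples, which may be technical. Strain, sex and age are not stated in the labels used here, and neither is a perfusion of the exposed rats. No unexposed brain was analysed, so each change below is from a brief exposure to a longer one. The concentration breathed by the controls is not stated in these labels, so it may differ from 2% as well. In whole brain RNA, fewer cells of a type and less RNA per cell cannot be told apart, and no region was measured apart.

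The 5S ribosomal RNA control parted the arrays: it read 12.9 to 23.7 on 3 of them (2 hr replicate 1 and control replicates 1 and 2) and 70.4 to 141.7 on the other 5. In top intensity, too, 3 arrays stood higher (control replicate 3, replicate 1 of the 1 hr group and replicate 3 of the 2 hr group), at 23009 to 37712 against 3504 to 12445 elsewhere. The 3 arrays of highest top intensity were 1 from each group. The class of low 5S reading held 2 controls, 1 array of the 2 hr group and 0 of the 1 hr group, so that at 1 hr the 5S class can be held constant against only 1 control. For several subunits, but not all, values within these classes of arrays or with a class in the fit are given below. The actin control's 3'/5' ratio, a sign of RNA quality, was 2.89 on control replicate 3 and 1.04 to 1.68 on the other 7 arrays. The GAPDH ratio was also highest on control replicate 3, at 1.56 against 0.884 to 1.39. The hexokinase ratio ranked the arrays otherwise. It was 3.15, 6.53 and 1.91 on control replicates 1, 2 and 3, and 2.01 to 2.58 on the exposed arrays. Brain markers were read in every group: the 9 pan-neuron markers measured summed to intensities of 5920 to 11565 in controls, 7701 to 8628 after 1 hr and 7057 to 10573 after 2 hr.

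Across the exposure no subunit changed by the test used. With limma and Benjamini-Hochberg adjustment over all 7770 probe sets, 0 of the 11 subunit probe sets passed when either exposure time was set against control, when the times were set against each other, or when any exposure was set against control, with equal weight for both times, and the background was the same, with 0% of all probe sets called in each. At an unadjusted p under 0.05, again 0 of the 11 were found, where 1.76% of all probe sets were found at 2 hr, 2.69% at 1 hr, 2.78% between the exposure times and 2.23% for any exposure. At 2 hr, 2 of the 11 read higher and 9 lower than control, with a median log2 change of -0.15 against 0.02 over all probe sets. At 1 hr, 5 read higher and 6 lower, with a median below 0.01 in size against 0.05 over all. The arrays were few, and the intervals were wide: the standard errors of the subunits' log2 changes ran from 0.295 to 0.861 at 2 hr and from 0.329 to 0.963 at 1 hr. At this precision the tests bound the changes and do not show that there were none.

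**Figure D1:**
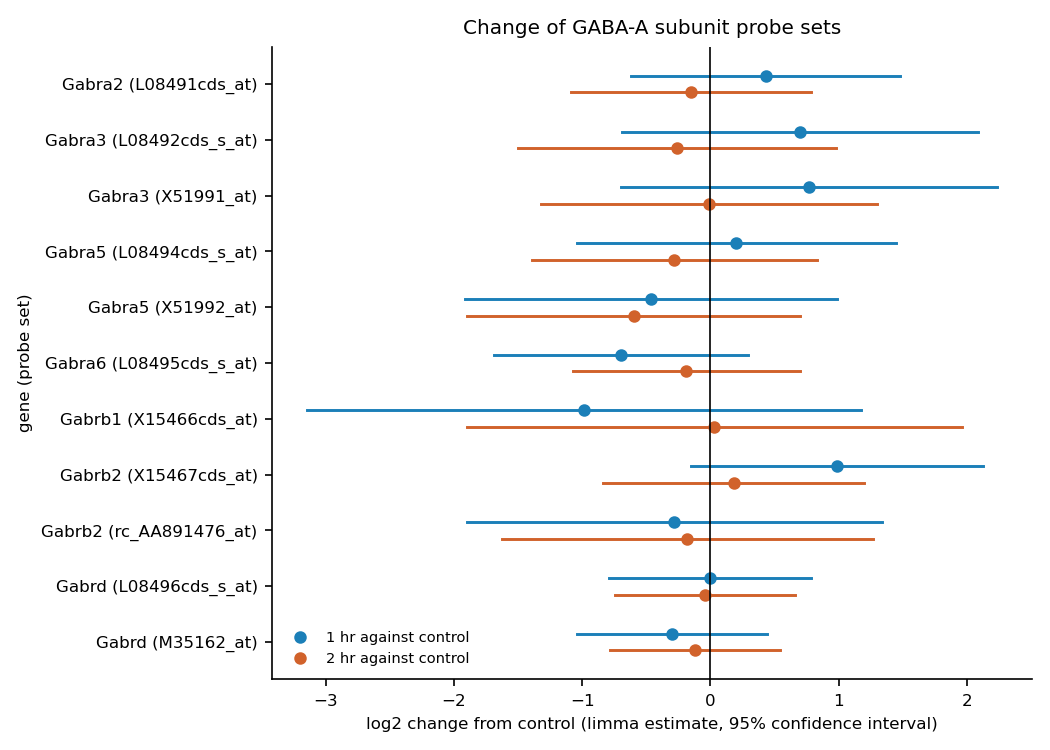
Log2 change from control of each subunit probe set after 1 hr (blue) and 2 hr (orange), with the 95% confidence interval of limma's fit as a line. Every interval spans 0, and the narrowest are those of Gabrd, within -1.04 and 0.78 in both comparisons.

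The start regions of 4 subunit genes show how unlike their promoters are. Gabra6 and Gabrd are shown as the partners of the extrasynaptic granule cell receptor, and Gabra5 and Gabrb1 as the subunits whose readings differed most between classes of arrays below. Each sequence is the coding strand from RefSeq on build GRCr8, from 250 bases before to 50 after the annotated start. Capitals mark matches, on either strand, to the motifs searched. The motif for the core promoter element was TATAAA, the upstream box bound by NF-Y was read as CCAAT, and the box bound by Sp factors as GGGCGG. Searched as well were the core of the cyclic AMP response element, spelled TGACG, and the palindromic glucocorticoid response element. Matches to GGGCGG overlap each other in the Gabrd sequence.
Gabra6, chr10:27327185-27327484, minus strand: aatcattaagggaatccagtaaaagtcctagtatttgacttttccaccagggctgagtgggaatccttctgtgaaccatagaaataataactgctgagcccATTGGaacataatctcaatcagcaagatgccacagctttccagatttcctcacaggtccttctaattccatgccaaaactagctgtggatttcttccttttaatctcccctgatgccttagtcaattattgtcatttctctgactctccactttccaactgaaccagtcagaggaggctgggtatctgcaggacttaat
Gabrd, chr5:171252660-171252959, minus strand: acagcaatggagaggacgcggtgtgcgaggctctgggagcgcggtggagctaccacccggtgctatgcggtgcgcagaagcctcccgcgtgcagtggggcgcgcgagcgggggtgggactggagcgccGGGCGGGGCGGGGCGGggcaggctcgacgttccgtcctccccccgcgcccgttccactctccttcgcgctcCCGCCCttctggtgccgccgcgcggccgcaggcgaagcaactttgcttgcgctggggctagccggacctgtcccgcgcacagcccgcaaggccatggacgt
Gabra5, chr1:117516557-117516856, minus strand: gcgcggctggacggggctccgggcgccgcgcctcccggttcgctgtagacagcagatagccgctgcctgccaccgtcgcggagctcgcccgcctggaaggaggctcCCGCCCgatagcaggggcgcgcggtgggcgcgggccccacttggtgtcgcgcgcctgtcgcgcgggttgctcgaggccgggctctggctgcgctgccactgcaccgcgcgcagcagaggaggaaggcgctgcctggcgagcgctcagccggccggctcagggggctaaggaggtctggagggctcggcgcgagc
Gabrb1, chr14:36902844-36903143, minus strand: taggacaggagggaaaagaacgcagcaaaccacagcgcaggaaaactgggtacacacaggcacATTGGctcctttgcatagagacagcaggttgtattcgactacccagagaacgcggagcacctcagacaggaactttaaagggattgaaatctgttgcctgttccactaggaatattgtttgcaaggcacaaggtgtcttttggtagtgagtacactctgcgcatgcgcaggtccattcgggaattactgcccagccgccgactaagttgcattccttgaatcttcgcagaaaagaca
The Gabra5 and Gabrd regions were 76.3% and 73.7% G or C with 42 and 40 CpG dinucleotides, and those of Gabra6 and Gabrb1 42.3% and 49.3% with 0 and 11. The median of 33469 rat promoter regions of the same length was 51.7%. The Sp box was matched 4 times for Gabrd and once for Gabra5, where 33.1% of all regions held at least 1. Gabra6 and Gabrb1 each held 1 NF-Y box, as did 37.5% of all regions, and no match to the core promoter element (14.2% of all), the cyclic AMP element core (21.2%) or the glucocorticoid element (0.0149%) lay in these 4 windows. These are letter matches, and no binding was measured.

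Several of these genes lie side by side. In the RefSeq gene order for GRCr8, Gabra6 and Gabrb2 are neighbours on chromosome 10 with 0 coding genes between them. Gabra2 and Gabrb1 lie in 1 cluster on chromosome 14, with Gabra4, another alpha subunit, and Cox7b2 between them and Gabrg1, a gamma subunit, next to Gabra2. Gabra5 neighbours Gabrg3, another gamma subunit, on chromosome 1. Gabra3 lies on chromosome X between Gabre and Gabrq, the epsilon and theta subunits, with 1 coding gene between it and each. Gabrd, on chromosome 5, has no listed subunit close by: 1157 coding genes separate it from Gabrr1.

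Intensities are given below as deposited, on a linear scale, and log2 changes after values were floored at an intensity of 9.18. Probe sets bind with different strength, so the intensity of 1 probe set is no measure of amount against another, and the order in which the subunits are described is not an order of abundance.

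**Figure D2:**
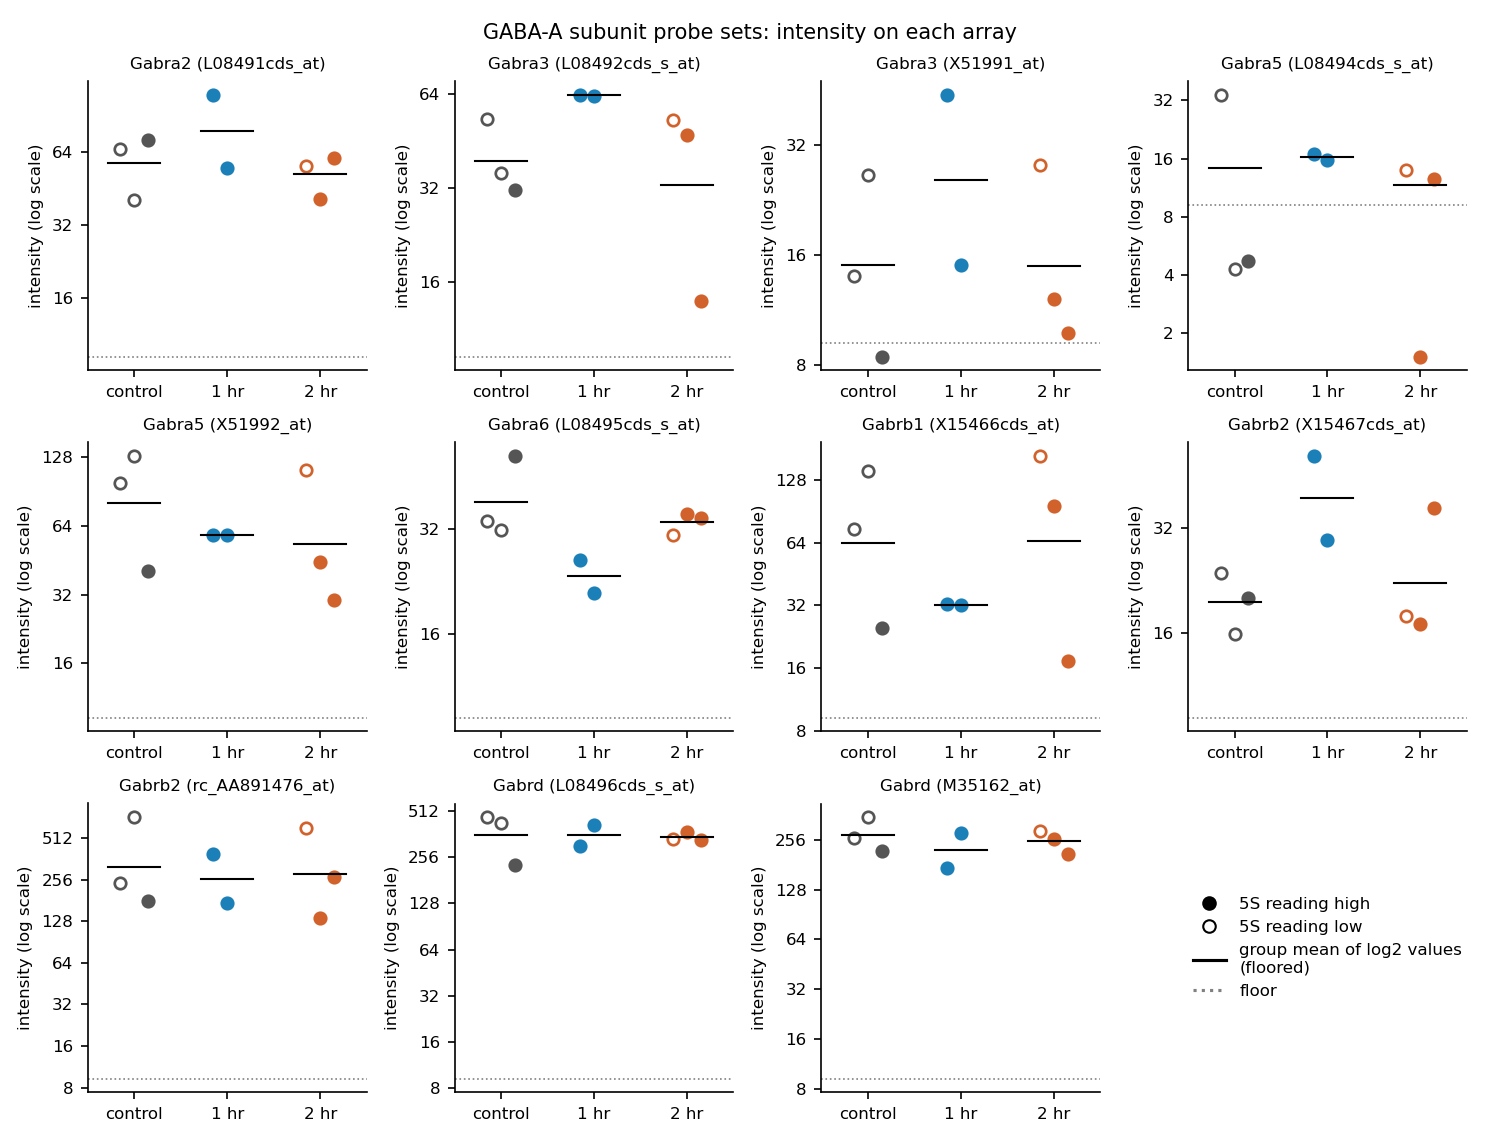
Intensity of each of the 11 subunit probe sets on every array (log scale) by group; open circles are the 3 arrays with a low 5S reading, black bars the group means of the floored log2 values and the dotted line the floor of 9.18. In 2 hr against control the arrays of the groups overlap in all 11 panels.

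Gabra2, the alpha subunit of many forebrain synapses, was read by L08491cds_at. Its intensity was 65.6, 40.4 and 71.6 in controls, 109.5 and 54.8 after 1 hr, and 56, 40.8 and 60.4 after 2 hr. All groups overlapped, and the highest value was 1 hr replicate 1. The log2 mean was 5.84 ± 0.44 (SD, n = 3) in controls, 6.28 ± 0.71 (SD, n = 2) after 1 hr and 5.69 ± 0.30 (SD, n = 3) after 2 hr. The 2 hr change of -0.15 had a 95% interval of -1.09 to 0.78, and the 1 hr change of 0.43 one of -0.62 to 1.48. Without 1 hr replicate 1 the latter was -0.07.

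Gabra3, an alpha subunit prominent in monoaminergic and thalamic reticular neurons, had 2 probe sets. L08492cds_s_at read 53.3, 35.8 and 31.5 in controls, 63.9 and 63.3 after 1 hr, and 53.1, 47.3 and 13.9 after 2 hr. Both 1 hr arrays lay above every control and every 2 hr array, and the 2 hr group was spread widely by replicate 3. The 1 hr change was 0.70 (SE 0.619), with an unadjusted p of 0.286 in limma, and the 2 hr change -0.26 (SE 0.553). The 2 hr value turned to 0.36 without 2 hr replicate 3. The dimmer X51991_at read 14, 26.5 and 8.4 in controls, 43.9 and 15 after 1 hr and 28.1, 12.1 and 9.8 after 2 hr. Its groups overlapped, its 1 hr change was 0.77 (SE 0.655), and without 1 hr replicate 1 it was 0.017. Within the 5 arrays of lower top intensity (1 array against 2 controls) it was -0.36. The 2 probe sets thus had the same sign at 1 hr, but only the brighter had groups apart.

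Gabra5, the alpha subunit best known from hippocampal neurons, read 99.1, 130.1 and 40.8 on X51992_at in controls, 58.5 and 58.6 after 1 hr, and 112.6, 44.3 and 30.3 after 2 hr. The values were high where the 5S reading was low: the 3 arrays of low 5S reading lay at 99.1 to 130.1, and the other 5 at 30.3 to 58.6. Over all probe sets, 9.86% had these arrays apart in either direction, and of the 11 subunit probe sets this was the 1 that did (9.09%). Such a parting was thus no more frequent among the subunits than over all probe sets. The 2 hr change was -0.60 (SE 0.578), and inside each 5S class it was smaller, at -0.01 where the 5S reading was low (2 controls, 1 exposed) and -0.16 where it was high (1 control, 2 exposed). Inside the classes of top intensity it was -0.43 (1 array against 1) and -0.68 (2 against 2). It was -0.19 without 2 hr replicate 3 and -1.14 without 2 hr replicate 1. The 1 hr change was -0.46 (SE 0.646), and 0.57 with the 5S reading as a block in the fit. The part of the 5S reading, or of what it stands for, in these changes was not tested. The other probe set, L08494cds_s_at, was dim, at 34.3, 4.3 and 4.7 in controls, 17 and 15.8 after 1 hr and 13.9, 1.5 and 12.6 after 2 hr. It lay at or below the floor on 2 controls and 1 array of the 2 hr group, so its changes of 0.20 at 1 hr and -0.28 at 2 hr depend on the floor.

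Gabra6, the alpha subunit nearly confined to granule cells of the cerebellum and cochlear nucleus, read 33.6, 31.7 and 51.7 on L08495cds_s_at in controls, 26.1 and 21 after 1 hr, and 30.7, 35.1 and 34.4 after 2 hr. Both 1 hr arrays lay below all 6 others, whereas the 2 hr arrays lay within the control range or just under it. The log2 mean was 5.25 ± 0.39 (SD, n = 3) in controls, 4.55 ± 0.22 (SD, n = 2) after 1 hr and 5.06 ± 0.10 (SD, n = 3) after 2 hr. The 1 hr change of -0.70 (SE 0.442) had an interval of -1.69 to 0.29 and an unadjusted p of 0.145 in limma, and the 2 hr change was -0.19 (SE 0.395). The 7 cerebellar granule cell markers measured summed to intensities of 622 to 838 in controls, 672 to 788 after 1 hr and 793 to 946 after 2 hr, so the groups overlapped at 1 hr. Of these markers 3 read higher and 4 lower at 1 hr, with a median log2 change of -0.04, and 0 passed. Pax6 and Fat2 of that list were above the floor on 3 and 2 arrays only.

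Gabrb1, a beta subunit, varied most. Its probe set X15466cds_at read 74, 142 and 24.8 in controls, 32.3 and 32.1 after 1 hr, and 167.4, 96.4 and 17.2 after 2 hr, a 9.73-fold range over the 8 arrays. Its SD over the 8 arrays was higher than that of 98.4% of the probe sets tested. The spread lay within the groups: the lowest and the highest array were both from the 2 hr group. The low values of 17.2, 24.8 and 32.3 were those of the 3 arrays of highest top intensity, with 1 hr replicate 2 at 32.1 beside them, and the arrays of low 5S reading read 74 to 167.4. The 2 hr change was 0.03 (SE 0.861), with an interval of -1.90 to 1.96 and a sign that turned under quantile normalization (-0.02), and the 1 hr change -0.99 (SE 0.963), with one of -3.15 to 1.17. With the 5S reading as a block the 1 hr change was 0.37, so the direction at 1 hr was not settled. Within the 5 arrays of lower top intensity it was -1.68 (1 array against 2 controls) and within the 3 others 0.38 (1 against 1). The part of these array features in the change was not tested.

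Gabrb2, the beta subunit of the most common receptor type of the brain, had 2 probe sets that differed in what they showed. The brighter, rc_AA891476_at, read 242.6, 731.6 and 178.8 in controls, 393.1 and 172.7 after 1 hr, and 603.1, 135.7 and 266.2 after 2 hr. Its 2 highest values were control replicate 2 and 2 hr replicate 1, both arrays of low 5S reading, and every group overlapped. Its changes were -0.18 (SE 0.645) at 2 hr and -0.28 (SE 0.721) at 1 hr, and with the 5S reading as a block they turned to 0.30 and 0.69. X15467cds_at read 23.8, 15.9 and 20.2 in controls, 51.3 and 29.6 after 1 hr, and 17.9, 17 and 36.5 after 2 hr. Both 1 hr arrays lay above the controls on it, and its 1 hr change of 0.98 (SE 0.508) had the smallest unadjusted p of the 11, 0.0829 in limma, with an interval of -0.16 to 2.12. Without 1 hr replicate 1 that change was 0.59. The sign at 1 hr thus differed between the 2 probe sets of this gene.

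**Figure D3:**
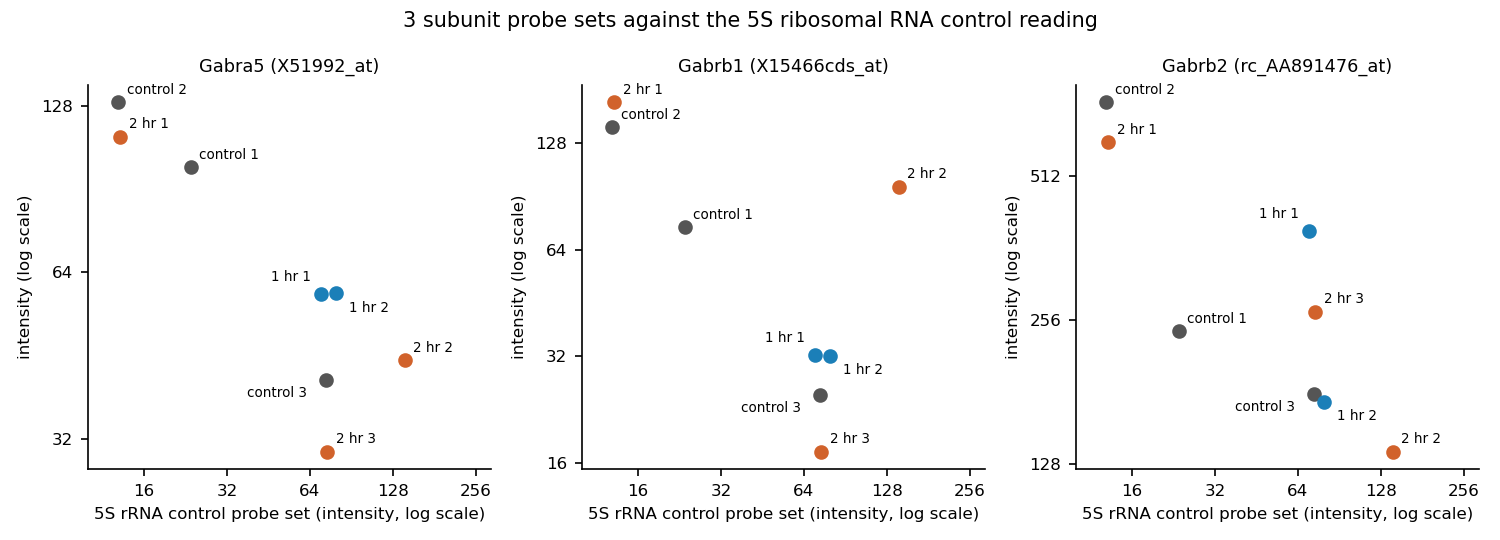
Intensity of Gabra5 (X51992_at), Gabrb1 (X15466cds_at) and Gabrb2 (rc_AA891476_at) on each array against the reading of the 5S ribosomal RNA control probe set, both on log scales; colours give the group (grey control, blue 1 hr, orange 2 hr). The 3 arrays with a 5S reading of 12.9 to 23.7 hold the 3 highest Gabra5 values, while Gabrb1 and Gabrb2 overlap between the array classes.

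Gabrd, the delta subunit of extrasynaptic receptors in cerebellar granule cells, thalamus and dentate gyrus, was the steadiest. L08496cds_s_at read 470.6, 424.8 and 226.9 in controls, 305.1 and 414.5 after 1 hr, and 335.3, 373.9 and 331.1 after 2 hr. M35162_at read 263, 352.3 and 218 in controls, 173.6 and 281.5 after 1 hr, and 290, 257.1 and 210.8 after 2 hr. The SD over the 8 arrays was higher than that of 22.6% and 20.3% of the probe sets tested. On both probe sets the 3 arrays of highest top intensity lay below the other 5, which held in either direction for 14.9% of all probe sets and for 2 of the 11 here (18.2%). The 2 hr changes were -0.04 (SE 0.314) and -0.12 (SE 0.295), and their intervals allowed a level between 0.596-fold and 1.58-fold of control on the first and between 0.582-fold and 1.45-fold on the second. At 1 hr the changes were below 0.01 in size (SE 0.351) and -0.30 (SE 0.329), with intervals of 0.578-fold to 1.72-fold and 0.487-fold to 1.35-fold. At 2 hr a change of 2-fold in either direction lay outside the interval for these 2 probe sets alone among the 11.

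Counted over the subunits, 0 of the 11 probe sets had the control and 2 hr arrays apart, where 5.44% of all probe sets did. At 1 hr against control 3 of the 11 (27.3%) had the groups apart, against a background of 12.7%: Gabra3 (L08492cds_s_at) and Gabrb2 (X15467cds_at) higher and Gabra6 lower. For 2 hr against 1 hr it was again 3 of 11 (27.3%), against 13.8%: Gabra3 (L08492cds_s_at) and Gabra5 (L08494cds_s_at) lower and Gabra6 higher after 2 hr. Both comparisons share the 2 arrays of the 1 hr group, and groups of 2 arrays are more often apart, as the background shows. With the 5S reading as a block, the 1 hr changes of Gabra3 (L08492cds_s_at), Gabrb2 (X15467cds_at) and Gabra6 were 1.21, 0.81 and -0.98. Within the 5 arrays of lower top intensity (1 array against 2 controls) they were 0.54, 0.61 and -0.64. Within the 3 others (1 against 1) they were 1.02, 1.34 and -0.99. The log2 changes of 2 hr against 1 hr ran from -0.96 for Gabra3 (L08492cds_s_at) to 1.02 for Gabrb1. Without 2 hr replicate 3 these were -0.34 and 1.98, and without 2 hr replicate 1 the latter was 0.34. The changes ran for any exposure against control from -0.53 for Gabra5 (X51992_at) to 0.58 for Gabrb2 (X15467cds_at). In the last comparison 0 of 11 had the groups apart, against 1.93%.

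As far as strength of binding only scales a reading, it cancels in the comparison between groups of the log2 difference of 2 probe sets within an array. Background signal at low intensity would not cancel. The brightest probe set of each alpha subunit was therefore read against the mean of the 4 alpha subunits on the same array. Gabra6 stood at -0.43 ± 0.51 (SD, n = 3) in controls, -1.12 ± 0.01 (SD, n = 2) after 1 hr and -0.32 ± 0.53 (SD, n = 3) after 2 hr on this log2 scale. Gabra3 stood at -0.39 ± 0.23 (SD, n = 3), 0.32 ± 0.22 (SD, n = 2) and -0.35 ± 0.70 (SD, n = 3) in the same order. On both 1 hr arrays Gabra3 thus stood higher and Gabra6 lower than on all controls, as in the intensities of the same 2 probe sets above, and at 2 hr both overlapped the controls. The mean includes the subunit itself and the 4 differences sum to 0 on each array, so these are not separate observations. Gabra2 and Gabra5 overlapped in all groups, at means of 0.16, 0.60 and 0.31 for Gabra2 and 0.65, 0.20 and 0.36 for Gabra5. The log2 difference of Gabrd and Gabra6, subunits of 1 receptor in granule cells, was 3.23 ± 0.95 (SD, n = 3), 3.93 ± 0.53 (SD, n = 2) and 3.38 ± 0.10 (SD, n = 3). That of Gabrb2 and Gabrb1 ran from 0.49 to 3.95, both ends within the 2 hr group.

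**Figure D4:**
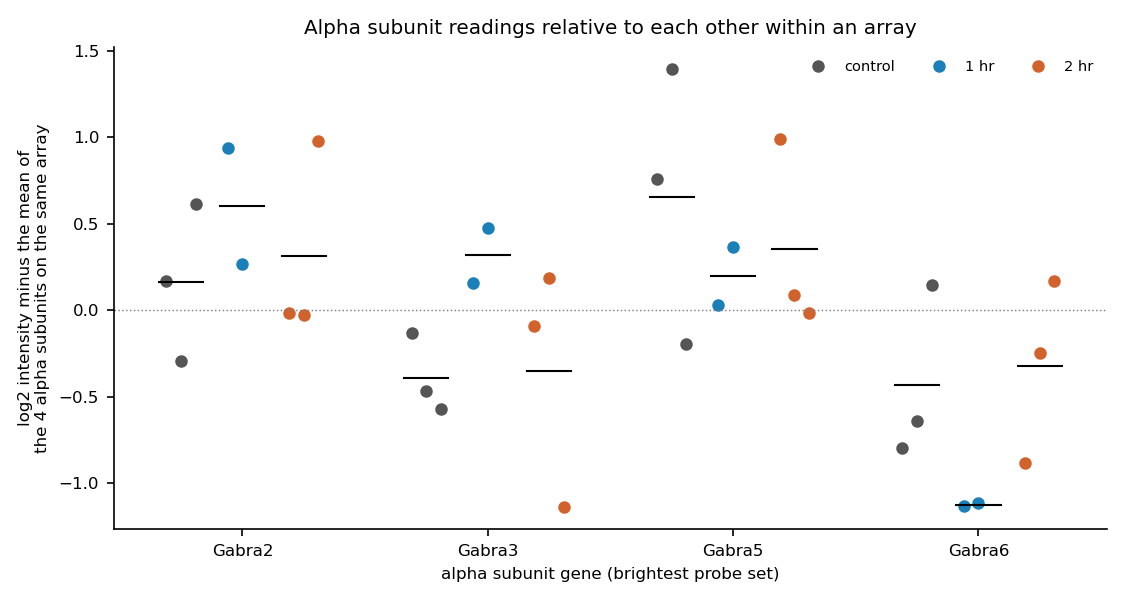
Log2 intensity of the brightest probe set of each alpha subunit minus the mean of the 4 on the same array, by group (grey control, blue 1 hr, orange 2 hr); dots are arrays and bars group means. On the 1 hr arrays Gabra3 lies above and Gabra6 below all control arrays, and the 2 hr arrays overlap the controls for all 4.

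The probe sets of other genes most like a subunit over the 8 arrays were found by Pearson's r of the log2 intensity, among up to 4678 probe sets that lay above the floor on every array. For Gabra5 (X51992_at) they were Dlg1, a synaptic scaffold, at r = 0.970 and Dnaja1, a co-chaperone, at 0.965. For Gabrb1 they were Slc6a7, the brain's proline transporter, at 0.956 and Mxi1, a transcriptional repressor, at 0.955. For Gabrb2 (rc_AA891476_at) they were Slc16a7, a monocarboxylate transporter of neurons, at 0.975 and Ptp4a1, a phosphatase, at 0.973. For Gabrd (L08496cds_s_at) they were Slc3a1, an amino acid transporter subunit, at 0.986 and Ptk2b, a calcium-activated tyrosine kinase, at 0.969. Prpmp5 (0.970) and Igfbp6 (0.960) were closest to Gabra2, Ggcx (0.946) and Igfals (0.940) to Gabra3 (L08492cds_s_at), and Sri (0.917) and Psma5 (0.913) to Gabra6. No other subunit was among them. They are the highest of all coefficients computed, and the points share the array features above, so these values are descriptions. The 2 probe sets of 1 gene correlated with each other at 0.61 for Gabrd, 0.55 for Gabra3, 0.29 for Gabra5 and -0.09 for Gabrb2. These are single coefficients and not the highest of many, so they cannot be ranked against those above. In addition, X51991_at of Gabra3 and L08494cds_s_at of Gabra5 lay above the floor on only 7 and 5 arrays.

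The pathway around the receptor did not pass either. Of 12 other GABA-A subunits listed, 8 were on the array by name and 6 passed the filter, with 0 called in each comparison by limma. For any exposure 4 of the 6 read higher and 2 lower, with a median log2 change of 0.27 against 0.04 over all probe sets. Gabrg1 read 44, 33.8 and 39.2 in controls, 67.4 and 54.8 after 1 hr and 98.1, 72 and 44.6 after 2 hr. All 5 exposed arrays thus lay above the controls, narrowly at 44.6 against 44, which 0.927% of all probe sets showed in that direction. Gabrg1 was named for its small unadjusted p in this same comparison, so that share does not measure how unusual it is. Its change was 0.73 (SE 0.362; limma, unadjusted p = 0.0730, adjusted p = 0.999). Gabrp, a subunit best known outside the brain, lay under the floor on all 3 controls and on 2 arrays of the 2 hr group, and read 18.4 and 17.1 after 1 hr.

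Among 7 measured genes of receptor assembly, trafficking and anchoring 0 were called, and 5 read higher and 2 lower for any exposure, with a median of 0.20. Nsf, the fusion ATPase that also binds beta subunits, read 0.80 (SE 0.934), and Ubqln1, which slows subunit breakdown, 0.22 (SE 0.368). Both values rested on control replicate 3, the array of the highest actin ratio, without which they were -0.50 and -0.17. Among 11 genes of GABA synthesis, transport, breakdown and the GABA-B receptor 0 were called, and 8 read higher and 3 lower, with a median of 0.18. Gad2, a GABA-synthesising enzyme, read 11.5, 17 and 15.4 in controls, 50.7 and 31 after 1 hr and 31.9, 32 and 25.8 after 2 hr. All exposed arrays lay above the controls, and the change of 1.25 (SE 0.353; limma, unadjusted p = 0.00575) did not pass over all probe sets (adjusted p = 0.999). Gad2, too, was named for its small unadjusted p in this comparison. Gabbr1, a GABA-B receptor subunit, read 0.95 (SE 0.392) on its brightest probe set and 0.90, 0.19 and -0.76 on its other 3.

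**Figure D5:**
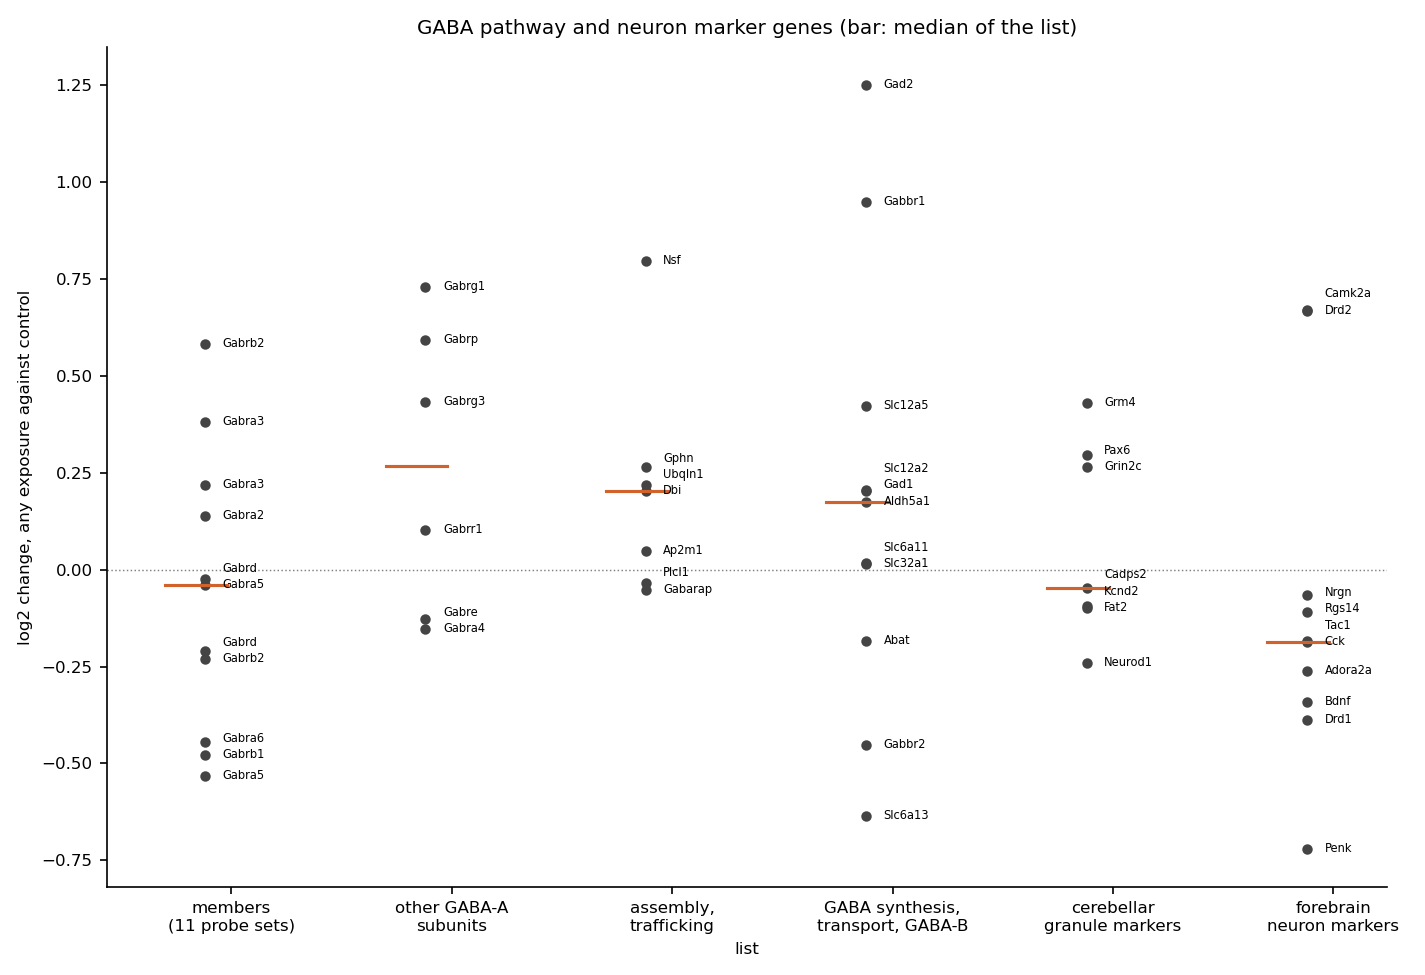
Log2 change for any exposure against control of the 11 subunit probe sets, of the genes of 3 pathway lists (brightest probe set per gene) and of 2 neuron marker lists; names stand beside the dots, spread where they would overlap, and orange bars are medians. The subunits' median lies just under 0, and Gad2, at 1.25, stands highest of the subunits and pathway genes.

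Markers of cell types were read beside the subunits. The mean log2 level of the 9 pan-neuron markers was 9.37, 9.62 and 9.69 on the 3 arrays of low 5S reading and 8.36 to 9.20 on the other 5, so this mean was higher in the array class in which Gabra5 was high. The mean of the 6 oligodendrocyte markers was narrowly apart in the same way, at 9.81, 9.92 and 9.83 against 9.46 to 9.79. Single markers did not all do so. Gap43, a pan-neuron marker, read 625.8 to 1196.4 on the arrays of low 5S reading against 719.6 to 1555.7, and Mog, an oligodendrocyte marker, 196.4 to 234 against 212.6 to 336.4. The 6 astrocyte markers overlapped between the classes, with summed intensities of 13369 to 16940 against 6823 to 14046. For the 10 forebrain neuron markers the summary decided the direction: their summed intensity was 8309 to 10124 on the arrays of low 5S reading against 6067 to 8484, but their mean log2 level was 7.16, 7.55 and 7.20 against 7.30 to 8.40. Of the forebrain markers 2 read higher and 8 lower for any exposure, with a median of -0.19 and 0 called.

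Pituitary markers, of tissue next to the brain, summed higher on both 1 hr arrays than in controls. Of the 1 hr arrays, choroid plexus markers did so on replicate 2 only. On both 1 hr arrays 1 probe set each of Gabra3 and Gabrb2 lay above the controls and that of Gabra6 below. All 7 pituitary markers had a higher group mean at 1 hr than in controls, with a median log2 change of 0.34 and 0 called. Gh1 and Pomc, however, read 24.8 and 16.8 on 1 hr replicate 1, below every control. The summed intensity of the 7 was 254 to 276 in controls, 306 to 536 after 1 hr and 238 to 923 after 2 hr. The highest sum, 923, was that of 2 hr replicate 2, where Cga read 594.1. On that array Gabra3 (L08492cds_s_at) read 47.3, Gabrb2 (X15467cds_at) 17 and Gabra6 35.1, each within the range of the controls. Of the probe sets of Prl, the hormone prolactin, V01244_at and V01250cds_s_at did not pass the filter on low values. E03166cds_s_at passed and lay above the floor on 5 arrays. It read 15.2, 4.1 and 13.5 in controls, 44.5 and 51 after 1 hr, and 3, 13.6 and 3.8 after 2 hr. Both 1 hr arrays lay above all others, with a change of 1.95 (SE 0.383; limma, unadjusted p = 0.000543, adjusted p = 1). The 5 choroid plexus markers, among them Ttr, the transthyretin gene, summed to 3622 on 1 hr replicate 2 and to 556 to 1398 on all others. The part of these cell type and tissue markers in the subunits' values was not tested.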

How the data were processed

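Total RNA of 8 whole brain samples was measured on 1 array each (3 control, 2 after 1 hr, 3 after 2 hr). The values used are the intensities as deposited by the authors in the series table. No source used here gives the software, scaling or normalization behind them. Computed from the values, the mean intensity with the lowest and highest 2% trimmed was 150.2 to 150.3 on every array. Intensities were floored at 9.18, the 20th percentile over all arrays, and log2 was taken. Of 8799 probe sets, 59 controls were left out and 7770 lay above the floor on at least 2 arrays. limma 3.58.1 in R 4.3.3 (lmFit and eBayes with a trend) was fitted over all groups with Benjamini-Hochberg adjustment over all 7770 and a threshold of 0.05, after a test on simulated data. Probe sets were named from the platform annotation: of 8740 non-control probe sets 7006 had 1 gene symbol, 308 several and 1426 none.

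The members and lists were chosen with earlier results of these data known. Every subunit probe set is named. From each pathway list the 2 genes with the smallest unadjusted p for any exposure are named, by their brightest probe set, and for each subunit the 2 probe sets of highest Pearson correlation. Promoter sequences are from RefSeq, build GRCr8. Alternatives covered the floor, a pseudocount of 16, the filter, the normalization, the fit, blocks and each replicate left out. The depth of an array is no count, and the number of arrays limits the precision.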

Additional observations from a re-analysis of the deposited data

How the results depend on the processing

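Over 32 results (26 changes of the subunits and 6 of pathway genes) and 21 alternatives, 604 of 655 values kept their direction, 51 turned, and 0 passed the threshold (lowest adjusted p 0.599, limma). Over all probe sets, 0 passed in each comparison under every alternative except no filter, with 4 for 1 hr against control and 4 for 2 hr against 1 hr. Median centring shifted the median of all probe sets from 0.05 to -0.06 at 1 hr. The causes of the turns below were not tested.

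At 2 hr, Gabra3 (L08492cds_s_at) turned to 0.076 with the floor at the 40th percentile and 0.20 without the 3 arrays of highest top intensity. Gabra3 (X51991_at), near 0, turned to 0.032 and 0.0017 with the floor at the 5th and 40th percentile, 0.013 with the pseudocount and 0.40 with the 5S block, which was chosen after seeing the data. Without those 3 arrays Gabra6 was 0.0084 and Gabrb2 (X15467cds_at) -0.16. Gabrb1 was -0.019 with quantile normalization and -0.047 with median centring. With the 5S block Gabrb2 (rc_AA891476_at) was 0.30 and Gabrd 0.11 (L08496cds_s_at) and 0.012 (M35162_at).

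At 1 hr, without those 3 arrays Gabra3 (X51991_at) was -0.36 and Gabra5 (L08494cds_s_at) -0.12. With the 5S block Gabra5 (X51992_at) was 0.57, Gabrb1 0.37, Gabrb2 (rc_AA891476_at) 0.69 and Gabrd (L08496cds_s_at) 0.30, and with those 3 arrays as a block the last was 0.081. For any exposure, Gabra5 (X51992_at) was 0.24 with the 5S block.

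Leaving out 1 replicate at a time moved the 2 hr changes from -0.41 to 0.017 for Gabra2, -0.61 to 0.36 and -0.47 to 0.40 for Gabra3 (L08492cds_s_at, X51991_at), -0.60 to 0.34 for Gabra5 (L08494cds_s_at), -0.32 to 0.031 for Gabra6, -0.65 to 0.99 for Gabrb1, -0.18 to 0.38 and -0.74 to 0.42 for Gabrb2 (X15467cds_at, rc_AA891476_at), and -0.37 to 0.16 and -0.28 to 0.065 for Gabrd (L08496cds_s_at, M35162_at). The 1 hr changes ran from -0.068 to 0.93 for Gabra2, -0.12 to 0.82 for Gabra5 (L08494cds_s_at), -0.87 to 0.32 for Gabrb2 (rc_AA891476_at), and -0.33 to 0.22 and -0.65 to 0.048 for Gabrd. Without a turn of sign but by over 1.5 times, the 2 hr change of Gabra5 (X51992_at) ran from -1.14 to -0.19, and at 1 hr that of the same probe set from -0.96 to -0.12, Gabrb1 from -1.67 to -0.41 and Gabra3 (X51991_at) from 0.017 to 1.54. For any exposure they ran from -0.50 to 1.61 for Nsf and -0.17 to 0.44 for Ubqln1. Where 1 array was left at 1 hr, it was assumed to vary like the other groups.

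With the replicate number of the labels as a block, 0 probe sets passed in each comparison. Between samples of 1 number, the correlations of deviations from the group mean ran from -0.33 to 0.29, with 4 of 7 pairs over 0.1. Between samples of different numbers they ran from -0.36 to 0.40, and 2 arrays correlated best with their own number. The deviations of the 2 arrays at 1 hr mirror each other, so these values cannot decide whether the numbers mark pairs.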
